A study of Mus musculus with 9 samples.

Results

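Transcripts of the lysosome were followed in 3 preparations of mouse stomach epithelium. The gene set holds 51 genes that code for lysosomal enzymes, lysosomal membrane proteins, subunits of the vacuolar proton pump (V-ATPase) and the transcription factors Tfeb and Tfe3. They were listed by name for their known function, with earlier results of these data known. Of the 51, 49 have a probe set of their own among the 18193 genes measured. Cd63 and Atp6v0c have no probe set used here. Total RNA of 9 samples was hybridised to 1 Affymetrix mouse genome array each. The parietal group (3 arrays) held gastric parietal cells. The isthmus group (3 arrays) held Mist1+ Tomato+ cells of the gastric corpus taken after Lgr5+ cells had been ablated, and the chief group (3 arrays) held Mist1+ Tomato+ corpus cells with no ablation named. All samples came from the C57BL/6 strain. The Mist1+ Tomato+ cells were isolated by flow cytometry. Tomato fluoresces red, Mist1 (gene Bhlha15) is a regulator found in cells that secrete enzymes, and Lgr5 is a receptor used as a stem cell marker. The alleles behind the reporter and the ablation, the ages of the mice, and how the parietal cells were collected are not stated in the sources used here. Separate animals are not named in the labels either. A p-value here rests on the spread between samples within groups, pooled over the 3 groups and drawn toward that of genes of similar signal. Since animals are not named, the spread between samples may be technical.

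Lysosomes break down proteins, glycans and lipids with hydrolases that work at acid pH. The V-ATPase keeps the lumen acid: its V1 sector in the cytosol splits ATP and turns a rotor, and its V0 sector in the membrane carries the protons. Parietal cells secrete gastric acid with a different pump, the H,K-ATPase coded by Atp4a and Atp4b, while chief cells store digestive proenzymes in secretory granules. TFEB, TFE3 and MITF are related transcription factors that bind E-box sequences in promoters of lysosomal genes.

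All values below are log2 signals or differences of log2 signals, and a call is an adjusted p under 0.05 in limma over the 11006 genes tested. Signals of different probe sets are not set against each other. The parietal label was borne out by its markers, since 8 of 8 listed parietal cell genes, Atp4a and Atp4b among them, were called higher on the parietal arrays than on either other group. The isthmus and chief arrays carried Atp4b too, with mean log2 signals of 14.25 on parietal arrays, 12.41 on isthmus arrays and 12.63 on chief arrays. In turn, the chief cell marker Pgc had means of 13.17 on parietal arrays, 13.91 on isthmus arrays and 14.81 on chief arrays. Other chief cell markers fell further: Cblif had 9.22, 11.61 and 14.50, and Gper1 had 6.51, 6.12 and 12.14, in the same order of groups. Bhlha15, which codes for Mist1, had log2 signals of 5.03, 1.34 and 7.36 on the isthmus arrays and 10.75, 10.05 and 9.20 on the chief arrays, and 2 of the 3 isthmus values lay below the array median. Of 6 chief cell markers, 5 were called lower on isthmus than on chief arrays. Individual arrays stood apart: Xist, a transcript of the inactive X chromosome, reached 13.13 on parietal replicate 1 and 11.72 on chief replicate 3, against 4.46 to 5.93 on the other 7 arrays. Chief replicate 3 was also the one chief array with a high summed signal of 8 fibroblast markers, at 25900 against 186 and 424 on the other chief arrays. The results below were also computed without these 2 arrays, an alternative chosen after seeing the data. The numbers of parietal, chief and isthmus cells behind each sample are not given, so in these bulk samples a larger share of a cell type and more RNA per cell cannot be told apart.

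The palindrome TCACGTGA, an E-box form bound by the TFEB family, occurs in the promoters of 7 members, which are shown here because they span pump, enzyme and channel genes. The windows run from 250 bases before to 50 bases after the annotated start in RefSeq (GRCm38.p6), and capitals mark the palindrome.
Atp6v0e (chr17:26676378-26676425, plus strand): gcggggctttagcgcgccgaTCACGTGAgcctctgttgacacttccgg
Atp6v1a (chr16:44139364-44139411, minus strand): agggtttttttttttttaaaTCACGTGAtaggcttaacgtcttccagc
Atp6v0d1 (chr8:105566041-105566088, minus strand): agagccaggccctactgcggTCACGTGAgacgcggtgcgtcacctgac
Ctsd (chr7:142387899-142387946, minus strand): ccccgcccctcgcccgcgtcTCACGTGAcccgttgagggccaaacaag
Ctsa (chr2:164833740-164833787, plus strand): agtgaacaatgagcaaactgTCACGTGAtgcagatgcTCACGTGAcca
Mcoln1 (chr8:3500453-3500500, plus strand): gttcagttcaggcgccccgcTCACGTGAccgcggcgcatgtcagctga
Gla (chrX:134601206-134601253, minus strand): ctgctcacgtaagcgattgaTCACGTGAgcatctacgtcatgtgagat
The copy shown begins 132 bases before the start in Atp6v1a, 99 in Ctsd, 46 in Mcoln1, 13 in Ctsa, 4 in Atp6v0d1 and 228 in Gla, and lies just inside the transcript in Atp6v0e. Ctsa has 2 copies, both shown, and Gla has 2, of which the farther one is shown. Of the 43 members with a promoter window, 7 (16.3%) held the motif in at least 1 window, against 304 of 27025 genes (1.12%). A longer palindrome of 10 bases, with a G before and a C after TCACGTGA, was searched too. It was found in 0 of the 43 members, against 100 of the 27025 genes (0.37%). With a share that low over all genes, 0 among 43 members says little either way. The core CACGTG, which every TCACGTGA contains, was found in 14 of the 43 members (32.6%) and in 8.09% of all genes. These motifs read the same on both strands. Some members have more than 1 window, 50 in all, and a match describes only the letters in the window. For the catalytic pump subunit gene Atp6v1a and the protease gene Ctsd, the whole 250 bases upstream of the start are given, with the palindrome again in capitals.
Atp6v1a upstream (chr16:44139260-44139509, minus strand): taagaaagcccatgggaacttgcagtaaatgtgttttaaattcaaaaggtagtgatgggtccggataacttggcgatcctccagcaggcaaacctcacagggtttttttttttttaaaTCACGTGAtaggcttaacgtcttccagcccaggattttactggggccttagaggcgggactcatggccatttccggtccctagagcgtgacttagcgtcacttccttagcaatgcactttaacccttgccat
Ctsd upstream (chr7:142387828-142388077, minus strand): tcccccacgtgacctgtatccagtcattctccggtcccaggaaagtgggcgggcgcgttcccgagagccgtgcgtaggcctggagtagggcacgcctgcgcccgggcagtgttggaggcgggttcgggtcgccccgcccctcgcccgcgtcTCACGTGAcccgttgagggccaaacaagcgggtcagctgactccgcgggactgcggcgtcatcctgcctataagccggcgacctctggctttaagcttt

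Parietal arrays carried more transcript of many lysosomal genes than either other group, and the proton pump held a large share of the calls. Against chief arrays, 15 of the 49 members were called higher and 2 lower, where 10.7% of all genes tested were called higher and 13.5% lower. Against isthmus arrays, 19 were called higher and 3 lower, where the same shares over all genes were 12.2% and 15.4%. The median difference over the 49 members was 0.31 against chief and 0.54 against isthmus, while the median over all genes tested was -0.10 and -0.09. All 49 members passed the filter on low signal and 45 of them lay above the array median on all 9 arrays, so they are brighter than most genes; among the 7493 genes that bright, 13% were called higher in parietal than chief and 14.3% higher in parietal than isthmus. Parietal and chief arrays did not overlap for 22 members with parietal higher and 5 with parietal lower, where 18.7% and 21.2% of all genes did so (39.8% in either direction). For parietal and isthmus arrays the counts were 24 and 3, where the shares over all genes were 20.3% and 24% (44.4% in either direction). The 2 comparisons share the parietal arrays. Their calls had 11 members higher in common: Ctsd, Npc2, Psap, Ppt1, Mcoln1, Atp6v0e, Atp6v1a, Atp6v1d, Atp6v1e1, Atp6v1f and Atp6ap1. Ctsc and Ctsz were lower in both, and 23 members were called in neither. Counts for the role groups below stand beside the shares of all genes called in the same comparison.

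The size of these counts depended on how arrays were scaled. When each array was centred on its own median, the median of all genes moved to 0.59 for parietal against chief and 0.22 for parietal against isthmus, and the members were called higher in 29 and 24 cases and lower in 1 and 2. Of all genes called, 44.0% were higher in parietal than chief as deposited and 79.3% after centring, and for parietal against isthmus the shares were 44.2% and 61.8%. Under centring the member medians were 1.0 and 0.85, again above the medians of all genes. Quantile normalization gave 16 higher and 2 lower against chief and 17 higher and 2 lower against isthmus.

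**Figure D1:**
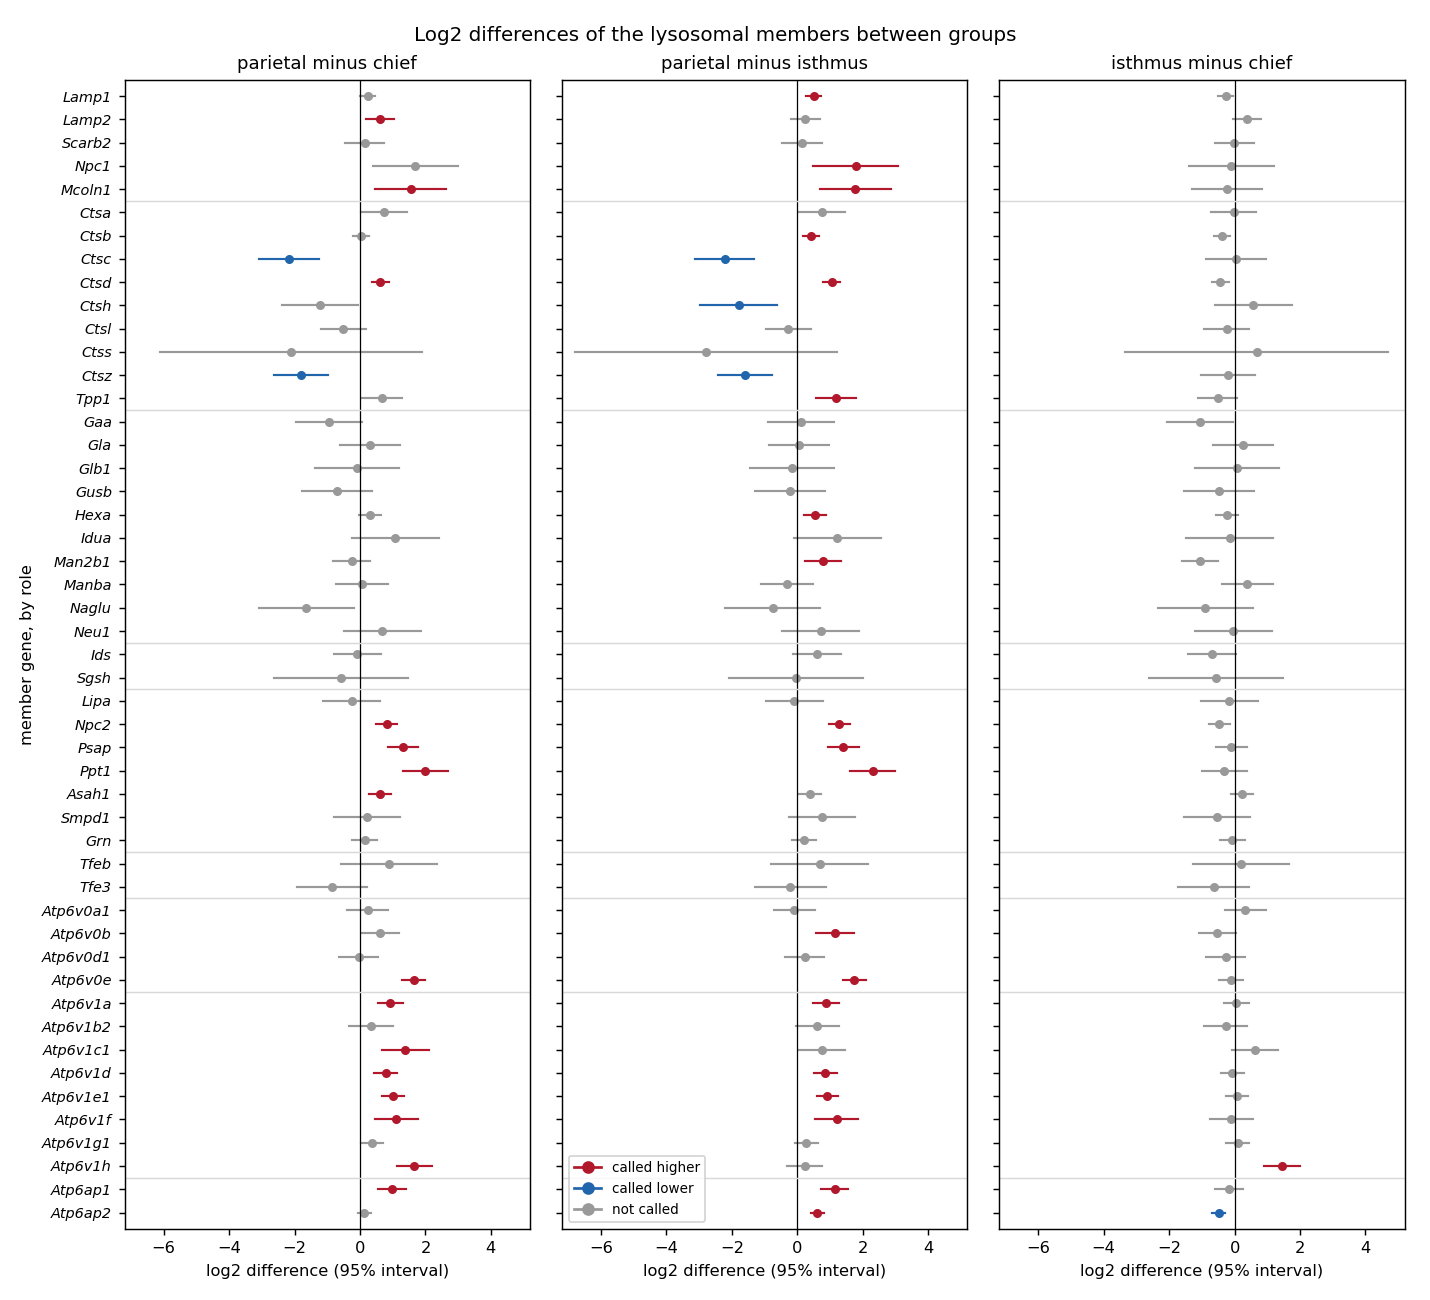
Log2 differences of the 49 measured members, grouped by role, in panels for parietal minus chief, parietal minus isthmus and isthmus minus chief. Each point is 1 gene with its 95% confidence interval. Colour gives the limma call: red for higher, blue for lower and grey for not called. In both parietal panels the V-ATPase rows lie almost wholly to the right of 0, from -0.04 to 1.66 against chief. The peptidases there spread to both sides, from -2.17 to 0.73 against chief.

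Of the 8 subunit genes of the V1 sector, the part of the pump that splits ATP, 6 were called higher on parietal arrays against chief and 4 against isthmus, and 0 were lower; all 8 differences were above 0 in both comparisons. Atp6v1a, the catalytic subunit, had log2 signals of 12.42, 12.31 and 12.17 on parietal arrays, 11.49, 11.48 and 11.30 on isthmus arrays and 11.32, 11.29 and 11.51 on chief arrays. Every parietal value lay above every other value. It was 1.9-fold higher against chief (difference 0.93, SE 0.18, adjusted p = 0.00231) and 1.84-fold higher against isthmus (0.88, SE 0.18, adjusted p = 0.00281). Atp6v1e1, a subunit of the outer stalk, had 12.87, 12.84 and 12.93 on parietal arrays, 11.81, 12.01 and 12.06 on isthmus arrays and 11.71, 12.06 and 11.87 on chief arrays. Again no value of another group reached the parietal ones, with differences of 1.0 against chief (SE 0.15, adjusted p = 0.000567) and 0.92 against isthmus (adjusted p = 0.000797). Its call did not hold for the mean over all 4 of its probe sets, at 0.15 (adjusted p = 0.791) and 0.17 (adjusted p = 0.765); of the other 3, 1 had the opposite sign.

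The rotor subunits moved the same way. Atp6v1d had 13.57, 13.49 and 13.76 on parietal arrays, 12.87, 12.80 and 12.58 on isthmus arrays and 12.44, 13.07 and 12.94 on chief arrays, which gives differences of 0.79 against chief (adjusted p = 0.00358) and 0.86 against isthmus (adjusted p = 0.00178). Atp6v1f had 11.95, 11.55 and 11.88 on parietal arrays, against 10.61, 11.06 and 10.09 on isthmus arrays and 10.19, 10.89 and 10.99 on chief arrays. For both genes the parietal arrays did not overlap with the others. Atp6v1f was higher by 1.1 against chief (SE 0.30, adjusted p = 0.0188) and 1.21 against isthmus (adjusted p = 0.01), and the call against chief was lost without parietal replicate 1 or 3 or chief replicate 1 (adjusted p = 0.0615 to 0.0679).

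A further pair of V1 genes was called against chief and not against isthmus. Atp6v1h, the regulatory subunit H, had 11.10, 11.18 and 11.29 on parietal arrays, 11.17, 10.87 and 10.87 on isthmus arrays and 9.57, 9.66 and 9.36 on chief arrays. The parietal and isthmus values overlapped and all lay above the chief values. The parietal minus chief difference was 1.66 (SE 0.25, adjusted p = 0.000504) and the parietal minus isthmus difference 0.22 (adjusted p = 0.563, 95% confidence interval -0.32 to 0.76). Over the mean of all probe sets of Atp6v1h the difference from chief was 1.45 (adjusted p = 0.092), and another probe set, above the array median on 7 arrays, gave 1.76 against chief and 2.26 against isthmus. Atp6v1c1, subunit C, whose loss from the complex goes with pump disassembly, had 12.87, 13.04 and 12.79 on parietal arrays, 11.64, 12.81 and 11.98 on isthmus arrays and 12.26, 11.36 and 10.92 on chief arrays. Its isthmus values spread over more than a log2 unit and isthmus replicate 2 overlapped the parietal range. It was 2.62-fold higher in parietal than chief (1.39, adjusted p = 0.00837), and the difference from isthmus was 0.76 (adjusted p = 0.106). Without parietal replicate 1 and chief replicate 3 the difference from chief was 1.11 with an adjusted p of 0.0698. Atp6v1b2 and Atp6v1g1, the non-catalytic nucleotide-binding subunit and a stalk subunit, were called in neither comparison, with parietal minus chief differences of 0.34 and 0.37.

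Of 4 genes measured in the V0 sector, which carries the protons, 1 was called higher against chief and 2 against isthmus, and 0 were lower. Atp6v0e, the small e subunit, had 13.15, 12.86 and 13.20 on parietal arrays, 11.31, 11.42 and 11.25 on isthmus arrays and 11.46, 11.48 and 11.36 on chief arrays. The gap between the parietal arrays and the rest was more than a log2 unit while arrays of a group lay close together (parietal SD 0.18, isthmus SD 0.09, chief SD 0.06, n = 3 each). It was 3.11-fold higher against chief (1.64, SE 0.17, adjusted p = 2.78e-05) and 3.35-fold higher against isthmus (1.74, adjusted p = 1.67e-05). Atp6v0b, a proteolipid of the proton-carrying ring, had 12.31, 11.88 and 11.97 on parietal arrays, 11.47, 10.84 and 10.40 on isthmus arrays and 11.51, 11.25 and 11.54 on chief arrays. It was higher against isthmus (1.15, adjusted p = 0.0061), and its difference from chief was 0.62 (adjusted p = 0.109) although no array of the groups overlapped. Atp6v0a1 and Atp6v0d1, the a1 subunit and the d1 subunit that couples ring and rotor, had parietal minus chief differences of 0.23 (95% confidence interval -0.40 to 0.86) and -0.04 (-0.63 to 0.56).

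Both accessory proteins of the pump were called in at least 1 comparison. Atp6ap1 (Ac45) had 12.25, 12.55 and 12.44 on parietal arrays, 11.55, 11.03 and 11.25 on isthmus arrays and 11.5, 11.52 and 11.30 on chief arrays. It was 1.96-fold higher against chief (0.97, adjusted p = 0.00308) and 2.2-fold higher against isthmus (1.14, adjusted p = 0.000931), with no overlap of arrays. Atp6ap2, known also as the prorenin receptor, had 14.03, 13.89 and 14.07 on parietal arrays, 13.38, 13.33 and 13.47 on isthmus arrays and 13.93, 13.77 and 13.92 on chief arrays. Here the isthmus arrays were the low ones and the parietal and chief ranges overlapped. Counting V1, V0 and accessory genes together, 8 of 14 were called higher and 0 lower in each comparison, with median differences of 0.86 against chief and 0.81 against isthmus. Of the 35 measured members outside the pump, 7 were called higher and 2 lower against chief (median 0.14), and 11 higher and 3 lower against isthmus (median 0.38). After centring 13 and 10 of the 14 pump genes were called higher, after quantile normalization 8 and 8, and 0 were lower under any of these scalings.

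**Figure D2:**
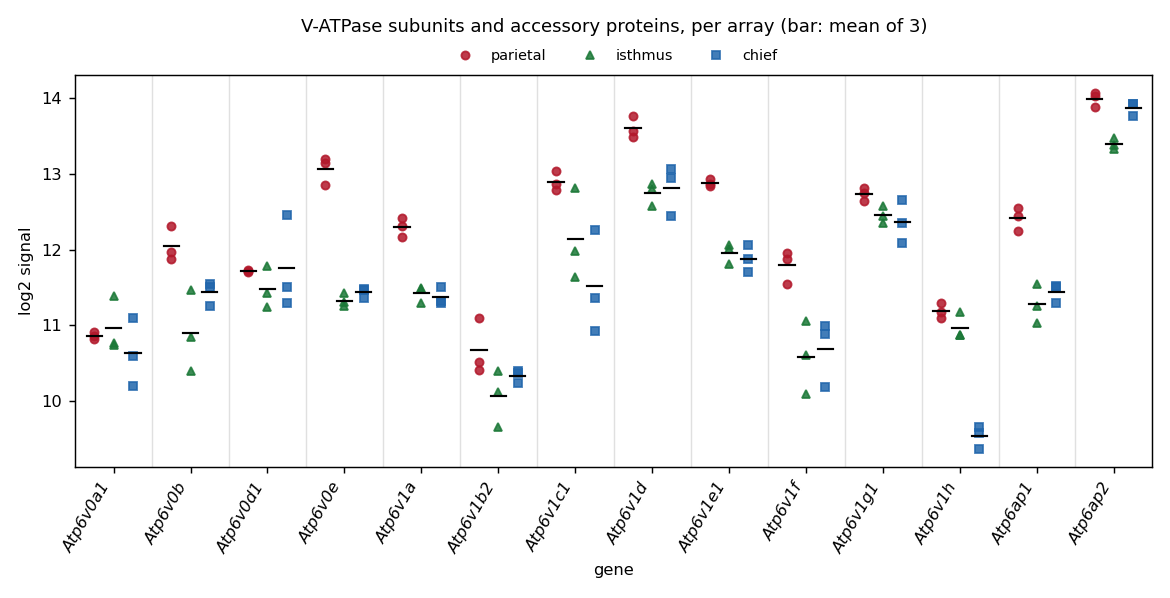
Log2 signal of the 14 measured V-ATPase genes on each array, with parietal, isthmus and chief arrays side by side and a bar at each mean of 3. The 3 parietal points of Atp6v0e, Atp6v1a, Atp6v1e1 and Atp6ap1 stand clear of the other 6, the chief points of Atp6v1h and the isthmus points of Atp6ap2 sit below the rest, and signals of different genes are not comparable.

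Between isthmus and chief arrays, 2 members were called. Atp6v1h was called higher on isthmus arrays and Atp6ap2 lower, out of 49, where 0.391% of all genes tested were called higher and 1.26% lower (0.494% and 1.51% of the genes above the array median on all 9 arrays). The difference of Atp6v1h was 1.44 (SE 0.25, adjusted p = 0.017) for the probe set used, while another probe set of the gene that was above the array median on 7 arrays gave -0.50. Atp6ap2 was 1.4-fold lower (-0.48, SE 0.09, adjusted p = 0.0271). Its probe set is of the x type, which Affymetrix marks as open to cross-hybridisation, and the 2 others of the gene gave -0.44 each. Both calls were lost without isthmus replicate 1 or chief replicate 1, and that of Atp6ap2 also without isthmus replicate 2 or chief replicate 3 (adjusted p = 0.061 to 0.085 for Atp6v1h and 0.0656 to 0.101 for Atp6ap2). Under centring the Atp6ap2 difference was -0.10 (adjusted p = 0.669) and under quantile normalization -0.12 (adjusted p = 0.449). The isthmus and chief arrays of 7 members did not overlap with isthmus lower (Lamp1, Ctsb, Ctsd, Gaa, Man2b1, Npc2 and Atp6ap2), where 10.5% of all genes did so, and those of 1 member with isthmus higher, where 10.6% did so. The median difference was -0.15 over the members and 0.03 over all genes, and centring turned the member median to 0.23 with the median of all genes at 0.41. Of all genes called, 23.6% were higher on isthmus arrays as deposited and 83.3% after centring. Of the 47 members not called, 23 had a 95% confidence interval within 1 log2 unit of 0 on both sides and 24 had a wider one.

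Proteins that handle lipids in the lysosome were higher on parietal arrays for 4 of 7 genes against chief and 3 of 7 against isthmus, and 0 were lower. Ppt1, the thioesterase that removes palmitate from proteins, had 12.09, 12.20 and 12.03 on parietal arrays, 10.19, 10.14 and 9.06 on isthmus arrays and 9.87, 10.17 and 10.29 on chief arrays. The lowest parietal array lay well above the highest of the other 6. It was 3.99-fold higher against chief (2.0, SE 0.32, adjusted p = 0.000688) and 4.96-fold higher against isthmus (2.31, adjusted p = 0.000208). Its next brightest probe set gave 1.68 and 2.04, but over all 5 probe sets, 3 of them dim, the mean difference was 0.65 (adjusted p = 0.457) and 1.65 (adjusted p = 0.0518). Psap, the precursor of the saposins that present sphingolipids to hydrolases, had 12.43, 12.49 and 12.81 on parietal arrays, 11.29, 11.28 and 10.93 on isthmus arrays and 11.60, 11.21 and 10.98 on chief arrays. Groups did not overlap, and the differences were 1.31 against chief (adjusted p = 0.000844) and 1.41 against isthmus (adjusted p = 0.000436).

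Npc2, which binds cholesterol in the lumen, had 13.76, 13.71 and 13.98 on parietal arrays, 12.23, 12.78 and 12.60 on isthmus arrays and 12.94, 12.92 and 13.15 on chief arrays. The groups formed 3 steps without overlap, parietal above chief above isthmus. The parietal arrays were 1.76-fold higher than chief (0.81, SE 0.15, adjusted p = 0.00165) and 2.43-fold higher than isthmus (1.28, adjusted p = 6.28e-05), and the isthmus minus chief difference was -0.47 (adjusted p = 0.132). The mean over all probe sets of Npc2 gave 0.99 against chief with an adjusted p of 0.116. Asah1, acid ceramidase, had 13.02, 12.95 and 12.93 on parietal arrays, 12.71, 12.45 and 12.59 on isthmus arrays and 12.50, 12.52 and 12.04 on chief arrays. It was higher against chief by 0.61 (adjusted p = 0.0117), a value that became 0.43 (adjusted p = 0.117) without parietal replicate 1 and chief replicate 3, and its difference from isthmus was 0.38 (adjusted p = 0.0829). Lipa, Smpd1 and Grn, coding for acid lipase, acid sphingomyelinase and progranulin, were called in neither comparison, with parietal minus chief differences of -0.25, 0.22 and 0.14. For Grn the interval was narrow, from -0.24 to 0.52. Other probe sets of these genes differed in sign while above the array median on all 9 arrays. Those of Lipa gave 0.95 and -0.84 against chief, and those of Grn -0.23 and -0.41.

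Of the 5 lysosomal membrane proteins measured, 2 were called higher on parietal arrays against chief and 3 against isthmus. Mcoln1, the calcium channel TRPML1, had 9.46, 9.92 and 9.45 on parietal arrays, 8.09, 7.18 and 8.23 on isthmus arrays and 8.06, 8.65 and 7.49 on chief arrays. It was higher by 1.54 against chief (SE 0.50, adjusted p = 0.0389) and 1.78 against isthmus (adjusted p = 0.0182), with no overlap. The call against chief was lost without any single parietal array or without chief replicate 1 or 3 (adjusted p = 0.0707 to 0.131) and with the replicate number as a block (adjusted p = 0.0615), and that against isthmus without isthmus replicate 2 or parietal replicate 2 (0.0659 and 0.0732). Over the mean of all probe sets of Mcoln1 neither call held, at 0.41 (adjusted p = 0.693) against chief and 0.72 (adjusted p = 0.453) against isthmus. Npc1, the membrane partner of NPC2 in cholesterol export, had 9.32, 10.53 and 9.94 on parietal arrays, 8.52, 9.16 and 6.76 on isthmus arrays and 8.56, 8.29 and 7.88 on chief arrays. Its parietal arrays were the 3 highest of 9. The difference was 1.78 against isthmus (SE 0.60, adjusted p = 0.0424) and 1.69 against chief (adjusted p = 0.0583), and the first call was lost without isthmus replicate 1 or 3, parietal replicate 2 or 3 or chief replicate 2 (adjusted p = 0.0525 to 0.155).

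The 2 major glycoproteins of the lysosomal membrane differed less. Lamp1 had 13.58, 13.69 and 13.74 on parietal arrays, 13.08, 13.14 and 13.28 on isthmus arrays and 13.57, 13.42 and 13.33 on chief arrays, and was 1.42-fold higher in parietal than isthmus (0.50, adjusted p = 0.00342). Lamp2 had 12.37, 12.47 and 12.43 on parietal arrays, 12.07, 12.16 and 12.30 on isthmus arrays and 11.41, 12.25 and 11.76 on chief arrays, and was 1.53-fold higher in parietal than chief (0.62, adjusted p = 0.0401). The parietal arrays were above all others for both genes, narrowly so in Lamp1. The Lamp2 call was lost without isthmus replicate 2, without any parietal array or without chief replicate 1 or 3 (adjusted p = 0.0533 to 0.124). Scarb2, which carries glucocerebrosidase to lysosomes, had differences of 0.14 from both groups for the probe set used. Another probe set of the gene, also above the array median on all 9 arrays, gave 1.04 against chief and 1.27 against isthmus.

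The peptidases, most of them cathepsins, went in both directions. Of 9 genes, 1 was called higher and 2 lower on parietal arrays against chief, and 3 higher and 3 lower against isthmus. Of all genes tested, 10.7% were called higher and 13.5% lower against chief, and 12.2% and 15.4% against isthmus. Ctsc, a dipeptidyl peptidase that activates serine proteases in immune cells, had 7.72, 9.0 and 8.41 on parietal arrays, 10.70, 9.91 and 11.17 on isthmus arrays and 10.35, 10.54 and 10.75 on chief arrays. All 3 parietal arrays were below all others. It was 4.5-fold lower against chief (-2.17, SE 0.42, adjusted p = 0.00244) and 4.65-fold lower against isthmus (-2.22, adjusted p = 0.00179). Ctsz, a carboxypeptidase, had 10.40, 9.20 and 8.91 on parietal arrays, 11.36, 10.71 and 11.26 on isthmus arrays and 11.67, 11.35 and 10.89 on chief arrays. Its parietal arrays were again the lowest 3, with differences of -1.80 against chief (adjusted p = 0.00467; -1.11 and 0.0557 after centring) and -1.61 against isthmus (adjusted p = 0.00772). Ctsh, an aminopeptidase, had 8.97, 9.12 and 8.19 on parietal arrays, 10.89, 10.03 and 10.75 on isthmus arrays and 10.69, 8.57 and 10.70 on chief arrays, so that chief replicate 2 fell in the parietal range. Its difference from isthmus was -1.80 (adjusted p = 0.0258; 0.0785 to 0.096 without isthmus replicate 1 or 3 or parietal replicate 3), and from chief -1.23 (adjusted p = 0.121). Under centring the Ctsh difference from isthmus was -1.48 (adjusted p = 0.0613).

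Ctsc, Ctsz and Ctsh are also known from macrophages. Of 12 macrophage markers measured, 3 passed the filter and 0 were called in any comparison by limma; at an unadjusted p under 0.05 there was 1 against chief and 0 against isthmus. Their summed linear signal was 149 to 473 on parietal arrays, 163 to 565 on isthmus arrays and 275 to 993 on chief arrays, ranges that overlap, and 0 or 1, 1 or 2, and 1 to 5 of the genes lay above the array median. Csf1r, a receptor that defines macrophages, had mean log2 signals of 2.86 on parietal arrays, 3.97 on isthmus arrays and 4.90 on chief arrays, below the array median on each array (medians 5.80 to 6.70). Several other marker lists had lower sums on all 3 parietal arrays than on any other array, as Ctsc and Ctsz did. The summed signal of 7 enteroendocrine genes was 430 to 658 on parietal arrays, 18790 to 42580 on isthmus arrays and 40790 to 78620 on chief arrays, and that of 5 genes of dividing cells was 6617 to 7569, 19570 to 25270 and 11710 to 22470 on the same groups. For 5 pit cell genes the sums were 52240 to 59060 on parietal arrays, 67440 to 80510 on isthmus arrays and 104100 to 129200 on chief arrays. For 2 neck cell genes they were 2747 to 7042, 11050 to 13120 and 13080 to 28110, and for 4 red blood cell genes 2570 to 2884, 3199 to 3431 and 3917 to 24400, in the same order of groups. Fibroblast and other leukocyte sums did not follow this order. Fibroblast sums were 155 to 375 on parietal arrays, 100.4 to 173 on isthmus arrays and 186 to 25900 on chief arrays. Those of other leukocytes were 146 to 276, 122 to 199.8 and 538.5 to 1345 on the same groups, highest on all 3 chief arrays. The part of these cells in the cathepsin differences was not tested.

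**Figure D3:**
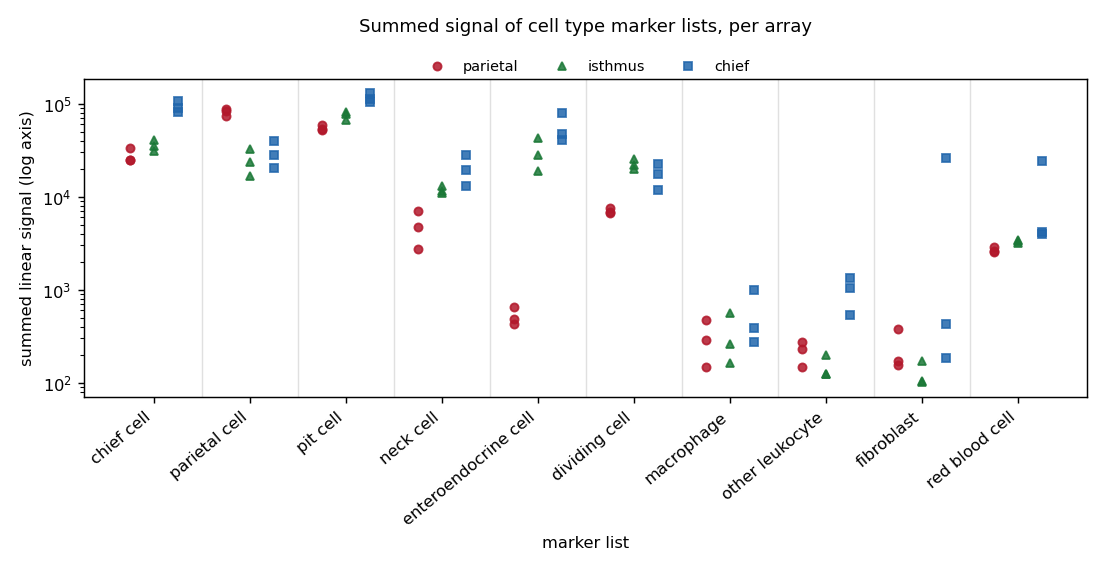
Summed linear signal (log axis) of 10 lists of cell type markers on each array, by group. The 3 parietal points lie above the others for the parietal list and below them for the pit, neck, enteroendocrine, dividing and red blood cell lists. For macrophages the groups overlap in part, with 149 to 473 on parietal arrays, 163 to 565 on isthmus arrays and 275 to 993 on chief arrays. For fibroblasts 1 chief array stands alone at 25900.

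Ctsd, the aspartic protease, was among the peptidases that were higher. Ctsd had 13.22, 13.23 and 13.31 on parietal arrays, 12.16, 12.21 and 12.23 on isthmus arrays and 12.58, 12.68 and 12.64 on chief arrays. The groups formed 3 tight steps, with SDs of 0.05, 0.04 and 0.05 (n = 3 each). Parietal was higher by 0.62 against chief (SE 0.12, adjusted p = 0.00228) and by 1.05 against isthmus (adjusted p = 5.07e-05), and the isthmus minus chief difference of -0.43 had an adjusted p of 0.0906. Tpp1, a tripeptidyl peptidase, had 11.73, 11.40 and 11.75 on parietal arrays, 10.07, 10.22 and 11.03 on isthmus arrays and 10.96, 10.81 and 11.11 on chief arrays. It was 2.28-fold higher against isthmus (1.19, adjusted p = 0.00671), and its difference from chief was 0.67 (adjusted p = 0.101). Ctsb, a cysteine protease, was higher against isthmus by 0.42 (adjusted p = 0.0139; 0.05 and 0.0552 without isthmus replicate 3 or parietal replicate 3), with 13.34, 13.27 and 13.38 on parietal arrays and 12.92, 13.05 and 12.77 on isthmus arrays. The mean over the 5 probe sets of Ctsb gave 0.04 (adjusted p = 0.938) and quantile normalization 0.19 (adjusted p = 0.229). Ctsa, Ctsl and Ctss were called in neither comparison, and Ctss was above the array median on only 3 arrays.

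**Figure D4:**
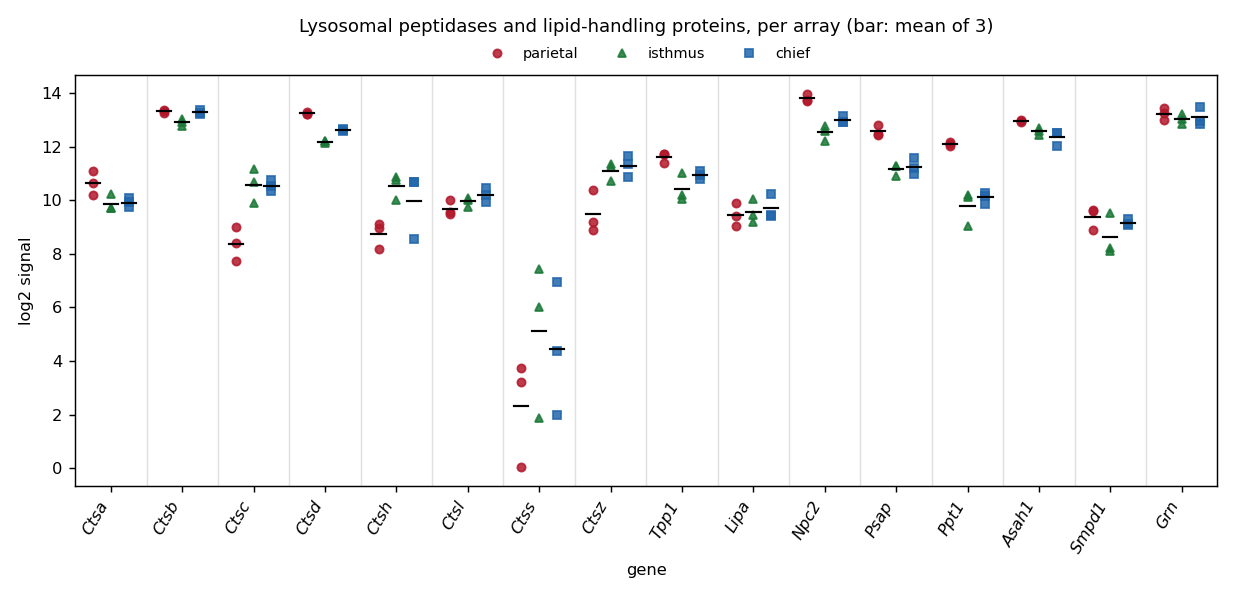
Log2 signal of the 9 peptidase and 7 lipid-handling genes on each array, by group, with a bar at each mean of 3. Parietal points are the lowest for Ctsc and Ctsz and the highest for Ctsd, Npc2, Psap and Ppt1; the 3 groups of Ctss scatter from 0.03 to 7.45.

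Of 10 glycosidase genes, enzymes that remove sugars, limma called 0 against chief (1 at an unadjusted p under 0.05) and 2 higher against isthmus, with medians of -0.01 and 0.08. Hexa, the alpha subunit of beta-hexosaminidase, had 12.59, 12.40 and 12.60 on parietal arrays, 12.20, 11.89 and 11.89 on isthmus arrays and 12.28, 12.14 and 12.24 on chief arrays. Parietal arrays were the highest 3, and the difference was 0.54 against isthmus (adjusted p = 0.0202) and 0.31 against chief (adjusted p = 0.167). Man2b1, lysosomal alpha-mannosidase, had 11.62, 11.28 and 11.36 on parietal arrays, 10.39, 10.72 and 10.77 on isthmus arrays and 12.19, 11.46 and 11.39 on chief arrays. The isthmus arrays were the lowest 3, with a parietal minus isthmus difference of 0.79 (adjusted p = 0.0343). The Hexa call was lost without isthmus replicate 2 or 3 or parietal replicate 1 or 3 (adjusted p = 0.0632 to 0.076), and the Man2b1 call without any single parietal or isthmus array (0.052 to 0.121). For the mean of the 2 probe sets of Man2b1 the sign turned, at -0.23 (adjusted p = 0.801).

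The other 8 glycosidases were called in neither comparison. Gaa, which degrades glycogen, had 8.72, 8.30 and 8.29 on parietal arrays, 7.67, 8.75 and 8.56 on isthmus arrays and 9.41, 9.80 and 8.96 on chief arrays, with parietal minus chief at -0.95 (adjusted p = 0.158) and no overlap of those groups. Gla, Glb1, Gusb, Idua, Manba, Naglu and Neu1 had parietal minus chief differences from -1.65 (Naglu) to 1.08 (Idua) for the probe sets used. Another probe set of Neu1, above the array median on 7 arrays, gave 2.21 against chief and 1.98 against isthmus. One of Idua, above it on 6 arrays, gave -0.19 and 0.86, and one of Gusb, above it on 8 arrays, gave -0.25 and 0.72. Of the sulfatases, Ids had -0.09 and Sgsh -0.59 against chief, and 0.60 and -0.03 against isthmus, with 0 calls and 0 unadjusted p under 0.05. Other Ids probe sets above the array median on 8 or 9 arrays gave 0.75 to 2.12 against isthmus. Their isthmus minus chief differences were -2.40 to -1.91, beside -0.69 for the probe set used. A dim one, above the median on 1 array, went the other way (-3.28 and 4.24). The intervals of these dimmer glycosidase and sulfatase genes were wide. Over all roles, 20 of the 32 members not called against chief and 16 of the 27 not called against isthmus had a 95% confidence interval that reached past 1 log2 unit.

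The transcription factors Tfeb and Tfe3 were not called. Tfeb had 8.46, 7.71 and 7.93 on parietal arrays, 7.88, 6.10 and 8.06 on isthmus arrays and 6.54, 7.92 and 6.99 on chief arrays. Tfe3 had 8.46, 9.39 and 9.45 on parietal arrays, 8.43, 10.25 and 9.27 on isthmus arrays and 9.39, 10.27 and 10.20 on chief arrays. The groups overlapped for both, with parietal minus chief differences of 0.88 (95% confidence interval -0.60 to 2.36) for Tfeb and -0.85 (-1.93 to 0.23) for Tfe3. Their relative Mitf, which is not among the 51 genes, had 11.46, 12.12 and 11.95 on parietal arrays, 7.46, 8.49 and 8.04 on isthmus arrays and 8.55, 9.11 and 9.01 on chief arrays. The parietal arrays stood more than 2 log2 units above the rest, so that Mitf was 7.75-fold higher against chief (2.95, SE 0.39, adjusted p = 0.00017) and 14.4-fold higher against isthmus (3.85, adjusted p = 2.46e-05). Both calls held under all 20 alternatives.

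Mitf belongs to a list of 24 genes for nutrient sensing at the lysosome and TFEB control, of which 22 were tested. Against chief 5 were called higher and 1 lower on parietal arrays (median 0.40), and against isthmus 7 higher and 0 lower (median 0.52). Over all genes tested, 10.7% were called higher and 13.5% lower against chief (median -0.10). Against isthmus the shares were 12.2% and 15.4% (median -0.09). Fnip2, a partner of folliculin, had 12.17, 12.32 and 12.74 on parietal arrays, 9.55, 9.48 and 9.76 on isthmus arrays and 11.35, 9.73 and 10.15 on chief arrays. No array reached the parietal values, and it was 4-fold higher against chief (2.0, adjusted p = 0.00172) and 7.03-fold higher against isthmus (2.81, adjusted p = 0.000143). Flcn, folliculin itself, was higher by 0.88 (adjusted p = 0.035) and 1.05 (adjusted p = 0.0135), and Rragc, a Rag GTPase, by 1.08 against chief (adjusted p = 0.0063). The Flcn calls were lost without parietal replicate 2 or 3 in either comparison, without chief replicate 2 or 3 in the first and without isthmus replicate 3 in the second (adjusted p = 0.0517 to 0.129). Lamtor4, a subunit of the scaffold that anchors mTORC1, was higher against isthmus by 1.02 (adjusted p = 0.0413; 0.052 to 0.146 without isthmus replicate 2 or 3 or any parietal array). Ywhaz, a 14-3-3 protein, was the gene called lower against chief, at -0.62 (adjusted p = 0.00167), and centring turned its sign to 0.073 (adjusted p = 0.722).

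**Figure D5:**
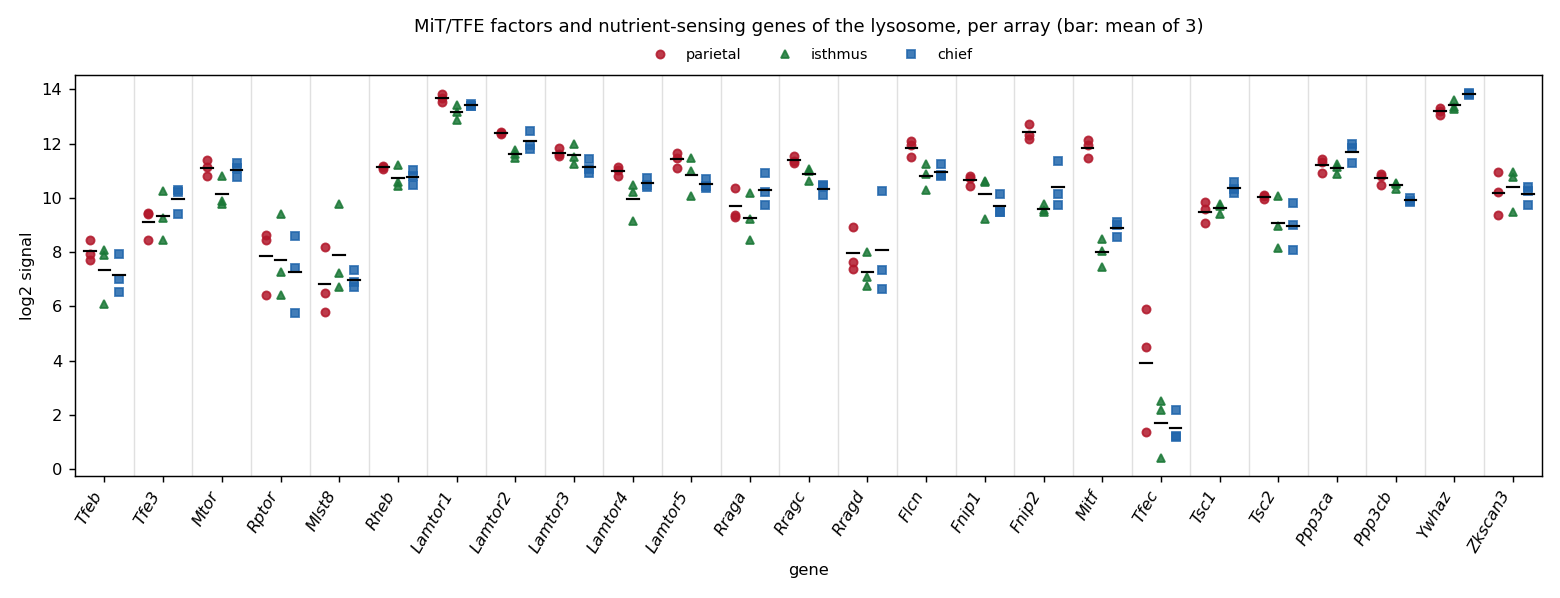
Log2 signal of Tfeb, Tfe3 and the 23 measured genes for nutrient sensing and TFEB control on each array, by group, with a bar at each mean of 3. The parietal points of Mitf and Fnip2 stand above all others, at 11.46 to 12.12 and 12.17 to 12.74, while those of Tfeb and Tfe3 overlap with both other groups.

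Lysosomal genes beyond the 51 were called in both directions. Of 142 listed, 119 were tested: 20 were called higher and 5 lower on parietal arrays against chief, 21 higher and 5 lower against isthmus, and 0 higher and 2 lower between isthmus and chief arrays. The listed genes called higher were 16.8% against chief and 17.6% against isthmus, where 10.7% and 12.2% of all genes were called higher and 13.5% and 15.4% lower; the counts of the smaller lists below stand against the same shares. The 2 called lower on isthmus than chief arrays were the gastric protease gene Ctse (-0.57, adjusted p = 0.0314) and Sort1 (-1.31, adjusted p = 0.0448). The Ctse call was lost without isthmus replicate 1 or 2 or any chief array (adjusted p = 0.0521 to 0.118), and the Sort1 call without any single array but chief replicate 3 (0.0551 to 0.161). Among 21 further hydrolases and activators, 4 were higher (19%) and 1 lower in each parietal comparison. Gm2a, the activator that lifts gangliosides for hexosaminidase, had 13.47, 13.34 and 13.44 on parietal arrays, 9.22, 11.13 and 9.70 on isthmus arrays and 11, 10.43 and 11.54 on chief arrays, and was 5.38-fold higher against chief (2.43, adjusted p = 0.000986) and 10.6-fold higher against isthmus (3.40, adjusted p = 8.09e-05). Galc, which degrades galactosylceramide, was higher by 2.83 (adjusted p = 0.00133) and 2.52 (adjusted p = 0.00247). For both genes the parietal arrays did not overlap with the rest. Acp5, an acid phosphatase, was lower, with 8.78, 7.62 and 8.44 on parietal arrays, 11.10, 11.54 and 11.94 on isthmus arrays and 9.13, 11.41 and 11.10 on chief arrays (-2.27, adjusted p = 0.00853 against chief, and -3.25, adjusted p = 0.000732 against isthmus). Over the mean of all probe sets the calls of Galc in both comparisons and of Gm2a against chief were lost (adjusted p = 0.107 to 0.298).

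Sorting and trafficking genes gave single large differences. Of 19 genes for mannose 6-phosphate tagging and sorting, 1 was called higher and 2 lower against chief. Gga2, a clathrin adaptor that carries mannose 6-phosphate receptors from the Golgi, had 13.37, 13.12 and 13.39 on parietal arrays, 10.25, 10.12 and 9.81 on isthmus arrays and 10.21, 11.39 and 10.16 on chief arrays. It was 6.53-fold higher against chief (2.71, SE 0.31, adjusted p = 5.69e-05) and 9.4-fold higher against isthmus (3.23, adjusted p = 1.54e-05). Sort1, the sorting receptor sortilin, was lower on parietal than chief arrays (-1.43, adjusted p = 0.00348; 0.127 after centring), and so was Gnptab, a subunit of the enzyme that makes the tag (-1.54, adjusted p = 0.0119; 0.0505 without chief replicate 3). Of 20 genes for lysosome positioning and fusion, 7 were higher and 1 lower against chief, and 5 higher and 3 lower against isthmus. The fusion genes Vti1b, a SNARE, and Vps33a, a tethering subunit, were higher against chief by 0.98 (adjusted p = 0.00498) and 3.15 (adjusted p = 0.00231). Rab3d, best known as a GTPase of secretory granules, was 7.11-fold lower against chief (-2.83, adjusted p = 0.000115) and 5.33-fold lower against isthmus (-2.41, adjusted p = 0.000301).

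Pump genes outside the 51 include subunits known from single tissues. Of 14 tested further subunits and assembly factors, 2 were called higher against chief, and 1 higher and 1 lower against isthmus, with 14.3% higher against chief and 7.14% higher against isthmus beside 10.7% and 12.2% of all genes. Dmxl1 and Wdr7, which form a complex that helps the pump assemble, were higher against chief by 1.0 (adjusted p = 0.0416) and 0.99 (adjusted p = 0.0447). Dmxl1 lost its call without any single parietal or chief array (adjusted p = 0.0557 to 0.129), and Wdr7 without any parietal array, isthmus replicate 2 or chief replicate 2 or 3 (0.0516 to 0.132). Rogdi, an assembly factor, had 9.68, 10.82 and 9.80 on parietal arrays, 7.54, 8.27 and 8.06 on isthmus arrays and 9.98, 10.17 and 9.29 on chief arrays, which puts the isthmus arrays lowest (parietal minus isthmus 2.14, adjusted p = 0.0031). Atp6v0d2, a d subunit known from osteoclasts and macrophages, had 4.91, 3.78 and 1.06 on parietal arrays, 9.44, 7.90 and 10.34 on isthmus arrays and 3.67, 7.37 and 9.51 on chief arrays. Its parietal values lay below the array median, and it was at least 10.5-fold lower in parietal than isthmus (-5.98, adjusted p = 0.00654). Among 23 further membrane proteins, 1 was called higher against chief and 3 against isthmus. Ostm1, the partner of a lysosomal chloride transporter, was higher by 1.69 against isthmus (adjusted p = 0.00366), and Laptm4a, a membrane protein of late endosomes and lysosomes, by 0.77 (adjusted p = 0.0096). Cln3, which is mutated in a childhood neuronal storage disease, was higher by 2.06 against isthmus (adjusted p = 0.0209; 0.0504 to 0.0747 without isthmus replicate 1 or any parietal array). Abcb9, a peptide transporter, was at least 3.34-fold higher against chief (adjusted p = 0.0445; 0.0542 to 0.16 without isthmus replicate 2, any parietal array or chief replicate 1 or 2).

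The calls can be set beside the promoters shown above. Of the 7 members whose promoter held TCACGTGA, 4 were called higher against chief (Ctsd, Mcoln1, Atp6v0e and Atp6v1a), 3 were not called (Ctsa, Gla and Atp6v0d1), and the same 4 were higher against isthmus, with medians of 0.73 and 0.88. Among the 34 measured members with a window but without the motif, 8 were called higher and 2 lower against chief, and 13 higher and 2 lower against isthmus, with medians of 0.18 and 0.52. Over all genes tested, 10.7% were called higher and 13.5% lower against chief (median -0.10), and 12.2% and 15.4% against isthmus (median -0.09). Atp6v0d1, Atp6v0e and Atp6v1a of the 7 are pump genes, and motif and role were not separated. A link between motif and call was not tested. The wider split was by the core CACGTG. Against chief 4 of the 14 members with it and 8 of the 27 without it were called higher, with medians of 0.27 and 0.23. Against isthmus 6 of the 14 and 11 of the 27 were called higher, with medians of 0.37 and 0.60. Atp6v0d1, whose palindrome sits 4 bases before the start, had 11.70, 11.73 and 11.72 on parietal arrays, 11.78, 11.43 and 11.24 on isthmus arrays and 12.46, 11.5 and 11.30 on chief arrays. Those groups overlapped throughout. Ppt1, Psap and Npc2, among the most different of the members, held neither TCACGTGA nor CACGTG in the windows searched.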

How the data were processed

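Total RNA from 9 samples (3 parietal, 3 isthmus, 3 chief) was measured on Affymetrix mouse genome arrays, 1 array per sample. The deposited values are log2 signals from MAS5, per the submitters' processing notes and the values: the base 2 was settled from the trimmed mean of the linear signal, which came to 496 to 497 on every array. Values at 0 (1.99% to 3.91% of each array) were read as the floor. The table holds 45037 probe sets. Of these 34945 name 1 gene, 932 several and 9160 none, and 34741 matched RefSeq symbols. Each gene was represented by the probe set naming it alone with the highest mean of the 9 arrays. The filter kept 11006 of 18193 genes, those brighter than the array median on 3 or more arrays.

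Groups were compared in limma 3.58.1 (R 4.3.3; lmFit, contrasts.fit, eBayes with an intensity trend) with 1 fit over all 9 arrays, 6 residual degrees of freedom, Benjamini-Hochberg adjustment over all genes tested and a two-sided threshold of 0.05. A fold is given as "at least" where arrays of the dimmer group lay below their array median and were set to it. Marker sums are of linear signals. Tables and figures were made with python 3.11.15, pandas 2.3.3, numpy 2.4.6 and matplotlib 3.10.9. The fit was tested on simulated data with known changes. The members and gene lists were chosen with earlier results of these data known. All members could be named; array values are given for the called members with the largest differences of each role group, and of the other lists up to 4 called genes per comparison. Replicates shared numbers across groups, and deviations from the group means on same-numbered arrays had correlations of -0.0371 to 0.0734. Between isthmus and chief arrays these were 0.0352 to 0.0734, beside -0.0482 to 0.0096 for arrays of different numbers. The numbers were not taken to pair samples in the main fit, and whether these 2 groups shared batches was not tested. The alternatives were quantile normalization, centring on array medians, pseudocounts of 16 and 64, no filter and a stricter one, the mean of all probe sets, only the groups compared, no intensity trend, the replicate block and leaving out each array. The number of arrays, 3 per group, limits the precision.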

Additional observations from a re-analysis of the deposited data

How the results depend on the processing

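In parietal against chief, 5 of the 17 called members (Ctsc, Psap, Atp6v0e, Atp6v1a and Atp6ap1) were called under all alternatives run, and 14 under the removal of any 1 array. In parietal against isthmus these numbers were 12 and 16 of 22, and in isthmus against chief 0 and 0 of 2. Centring arrays on their medians gave 29 members higher and 1 lower in parietal against chief (median difference 1.0), a median of 0.85 in parietal against isthmus, and 276 genes called in isthmus against chief with 0 members lower (median 0.23). Quantile normalization gave a median of 0.32 in parietal against isthmus and 0 members lower in isthmus against chief. Without the intensity trend 9 members were higher in parietal against chief, and isthmus against chief had 43 genes called and 0 members lower. The mean of all probe sets gave a median of 0.23 in parietal against chief, and 118 genes called with 0 members higher and 0 lower in isthmus against chief. With only the groups compared, isthmus against chief had 91 genes called and 0 members higher or lower. Pseudocounts of 16 and 64 gave 2 members lower there, and that of 64 gave 316 genes called. No filter gave 95 genes called, and the stricter filter 2 members lower and, in parietal against isthmus, a median of 0.60. Without chief replicate 3 and parietal replicate 1, chosen after seeing the data, 1601 genes were called in parietal against chief (median of members 0.38), the median was 0.47 in parietal against isthmus, and isthmus against chief had 50 genes called, 0 members higher or lower and a median of -0.22. Removing 1 array at a time gave 19 to 163 genes called, 0 to 1 members higher, 0 to 1 lower and medians of -0.22 to -0.11 in isthmus against chief. In parietal against chief the medians were 0.28 to 0.45, with 12 to 16 members higher and 1909 to 2614 genes called, and in parietal against isthmus 0.46 to 0.54. Signs turned for Man2b1 in parietal against isthmus (-0.23) and Fuca1 and Ppp3cb in parietal against chief (-0.17 and -0.64) with the mean of all probe sets, and for Ywhaz in parietal against chief (0.073) under centring. The cause was not tested in any of these. With the replicate block, 2579, 2946 and 139 genes were called in parietal against chief, parietal against isthmus and isthmus against chief, and the member counts stayed at 15 higher and 2 lower, 19 and 3, and 1 and 1. Dim probe sets limit what could be seen: Ctss, Naglu, Sgsh and Tfeb were not above the array median on all 9 arrays.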
